A study of Mus musculus with 18 samples.

Results

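A set of 10 genes of the Notch pathway that are known for roles in arteries were followed through bulk RNA-seq of mouse aorta, in mice whose *Tspan2* promoter had been edited. They were taken by gene symbol from the count tables of both experiments: the receptors *Notch1*, *Notch2*, *Notch3* and *Notch4*, the ligands *Jag1*, *Jag2* and *Dll4*, and the target genes *Hey1*, *Hey2* and *Heyl*. These are 10 of 55453 gene symbols in the tables, and all 10 were found and passed the filter on low counts in each experiment. The edits lay in the CArG box, the binding site of serum response factor (SRF) in the promoter of *Tspan2*, a tetraspanin gene of smooth muscle. In the HDR experiment, Cas9, an sgRNA and a repair template had changed 3 bases of the box, and aortae of *Tspan2* sg/sg mice and *Tspan2* +/+ controls were taken at 12 weeks (5 libraries each, labelled C57BL/6). In the PE2 experiment, prime editor 2, a Cas9 nickase joined to a reverse transcriptase, had changed 1 base, and aortae of *Tspan2* peg/peg mice and *Tspan2* +/+ controls were taken at 8 weeks (4 libraries each, labelled FVB/N/B6(Cg)-Tyrc-2J/J). Per the labels, the HDR groups each held 3 females and 2 males, the PE2 wild-type group 3 females and 1 male, and the PE2 mutant group 4 females. Mutants were homozygous, and per the methods the founders of both lines came from the same kind of strain cross and were bred to C57BL/6J. The experiments differed in age, strain label, sequencing run and depth, which cannot be told apart. Aortae had been cleaned of adhering tissue before RNA was taken, and the libraries held polyadenylated RNA.

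Notch receptors are single-pass membrane proteins that are activated by ligands on a neighboring cell. Ligand binding leads to cleavage by ADAM proteases and then by gamma-secretase, and the freed intracellular domain joins RBPJ and a Mastermind protein on DNA to switch on targets such as the Hey repressors. In arteries, *Dll4*, *Notch1* and *Notch4* are known from the endothelium, *Notch3* and *Heyl* from smooth muscle cells and pericytes, *Jag1* from both layers, and *Hey2* from the specification of arteries. In whole tissue, fewer cells of a type and less RNA per cell cannot be told apart.

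*Hey2*, the gene whose values moved most in a single library, is shown here by its promoter because it was the one gene of the set with an RBPJ motif before its start. In the RefSeq promoter table (GRCm38.p6), 8 of the 10 genes had an entry. *Hey1* and *Heyl* were not among them. The motif GTGGGAA, searched on both strands in the 250 bases before the start, was found in 1779 of 32851 promoters (5.42%) and in 1 of the 8. The *Hey2* stretch is chr10:30842784-30843033 on the minus strand, given 5′ to 3′ as the gene reads, with the motif on the opposite strand in capitals at 207 to 201 bases before the start.
Hey2 promoter: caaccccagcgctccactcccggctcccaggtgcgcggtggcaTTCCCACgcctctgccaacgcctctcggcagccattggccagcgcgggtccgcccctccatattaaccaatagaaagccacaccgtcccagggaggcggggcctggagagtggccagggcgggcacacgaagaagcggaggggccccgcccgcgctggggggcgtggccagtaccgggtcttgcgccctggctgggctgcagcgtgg
The CArG box, searched by its name as the SRF consensus, was found in 482 promoters (1.47%) and in 0 of the 8. A match is a description of these letters and not a measured binding site.

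Depth was 17290992 to 24880385 counts per library in the HDR experiment and 38820265 to 44895615 in the PE2 experiment. *Tspan2*, the edited gene, stood at 112 to 265 CPM in HDR wild-type and at 16.0 to 36.6 CPM in sg/sg libraries, and at 186 to 284 CPM in PE2 wild-type and 11.9 to 25.5 CPM in peg/peg libraries. CPM here are read counts scaled to a common library size, with TMM factors set within each experiment. In each experiment, every library thus lay on the side of its labelled genotype for *Tspan2*. The log2 fold change was -3.07 ± 0.27 (SE, edgeR adjusted p = 0.00226) in HDR and -3.45 ± 0.29 (edgeR adjusted p = 0.0292) in PE2. Without the library labelled peg/peg replicate 3 it was -3.28 ± 0.22 in PE2 (edgeR adjusted p = 0.00524). That library went against its tissue label, as given below, so its *Tspan2* level alone cannot show its genotype. Of 9 immediate early genes, which respond to handling of tissue, 6 were higher in peg/peg aortae at an unadjusted p under 0.05 and 0 passed the adjusted test, where 4.3% of all genes tested had such a p in either direction. Their summed levels were 439 to 1189 CPM against 276 to 481 CPM in PE2 wild type, and their median log2 fold change was 1.21. Without the library labelled peg/peg replicate 3, 8 of the 9 had an unadjusted p under 0.05 (4.1% of all genes) and 0 passed the adjusted test, the sums were 926 to 1189 CPM, above all of wild type, and the median was 1.57. The part of these genes in the PE2 values below was not tested. Some cell type markers also had an unadjusted p under 0.05, and 0 passed the adjusted test. In HDR, 6 of 7 macrophage markers were lower in sg/sg aortae and 0 higher, against 1.98% of all genes, with a median of -0.69. In PE2 without peg/peg replicate 3, 5 of 5 cardiac muscle markers tested were higher. There, 4 of 9 lymphoid and 3 of 13 endothelial markers were lower. Their part in the values below was not tested either.

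The library labelled peg/peg replicate 3 went against its tissue label, and most results are therefore given with and without it. Genes of the aortic wall were low there: *Eln*, which encodes elastin, stood at 622 CPM against 11617 to 34850 CPM in the other 7 PE2 libraries, *Itga8* at 50.8 CPM against 2427 to 4027 CPM, and *Sost* at 0 CPM against 302 to 702 CPM. HDR libraries had 430 to 2915 CPM of *Eln*, so its level here was low only against PE2. *Itga8* (3125 to 6694 CPM) and *Sost* (108 to 670 CPM) were higher in every HDR library as well. Genes of visceral muscle and of urothelium were high: *Actg2* stood at 8942 CPM against 161 to 456 CPM, *Des* at 5570 CPM against 92 to 111 CPM, and *Upk1a* at 229 CPM against 0.483 to 13.7 CPM. These genes were chosen after the values had been seen. Of 16401 genes tested, 14.3% lay more than 2-fold outside the range of all other PE2 libraries in it, against at most 0.976% in any other PE2 library. Its sum over 11 smooth muscle markers was the highest of the PE2 libraries (63823 against 33825 to 56906 CPM), its sum over 13 endothelial markers the lowest (855 against 1660 to 3681 CPM), and no marker of these lists was at 0 in it. The 11 smooth muscle markers did not all move alike. *Myh11* was high (15924 against 4726 to 10130 CPM), whereas *Ntrk3* (2.92 against 145 to 209 CPM) and *Itga8*, given above and also of this list, were low. The others of the list are not given singly. This library's sums over 8 skeletal (1190 CPM) and 7 cardiac muscle markers (616 CPM) were above those of the other PE2 libraries, which reached 25.3 and 127 CPM. *Tspan2* was the lowest there of all PE2 libraries, at 11.9 CPM. In the HDR experiment, wild-type replicate 3 had 3094 CPM over 5 visceral muscle genes, against 276 to 509 CPM in the other 9, while its sum over 5 aortic wall genes, 4990 CPM, lay within that of the others (4295 to 10601 CPM). It was also the highest HDR library over cardiac (113 against at most 18.8 CPM) and skeletal muscle markers (158 against at most 82.3 CPM). The same held for urothelial markers (91.8 against at most 82.1 CPM) and for *Hoxa13* and *Hoxd13* summed (16 against at most 1.13 CPM). Without that library, the HDR log2 fold changes below ran from -0.02 to 0.30, with 0 calls.

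None of the 10 genes differed between genotypes past the threshold in either experiment. In HDR aortae, 0 of 10 passed an edgeR adjusted p under 0.05 and 0 of 10 an unadjusted p under 0.05, where 0.00609% and 1.98% of all 16423 genes tested did. Their log2 fold changes ran from -0.05 to 0.21, with a median of 0.06 against 0.00 over all genes, and standard errors of 0.11 to 0.26. DESeq2 and limma-voom also called 0 of 10. In PE2 aortae, 0 of 10 passed either limit in edgeR and 0 the adjusted limit in DESeq2 and limma-voom, where 0.0061% and 4.3% of 16401 genes did. The log2 fold changes ran from -0.84 to 0.46, with a median of -0.03 against 0.01 over all genes. Without peg/peg replicate 3 they ran from -0.47 to 0.38, again with 0 of 10 past the adjusted and 0 past the unadjusted limit, against 0.012% and 4.1% of all genes.

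On TMM CPM, the groups overlapped for every one of the 10 genes in both experiments, with 0 genes for which all mutant libraries lay above or below all wild-type libraries. On CPM of the library total, *Hey2* in PE2 was an exception, as given below. On TMM CPM such a separation was seen for 0.317% of the genes tested in HDR, for 2.54% in PE2 and for 5.23% in PE2 without peg/peg replicate 3. The change also did not differ between the edits past the threshold for any of the 10 genes: 0 passed the adjusted edgeR test of the interaction and 0 an unadjusted p under 0.05, where 0% and 5.13% of all 18094 genes tested did, and without peg/peg replicate 3 the counts were again 0, against 0% and 3.28%. The largest 95% interval bound in HDR was 0.67 on the log2 scale (*Notch4*), so that changes beyond that size were outside the intervals of the HDR comparison for all 10 genes. In PE2 the intervals were wider, and that of *Heyl* reached -2.58.

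**Figure D1:**
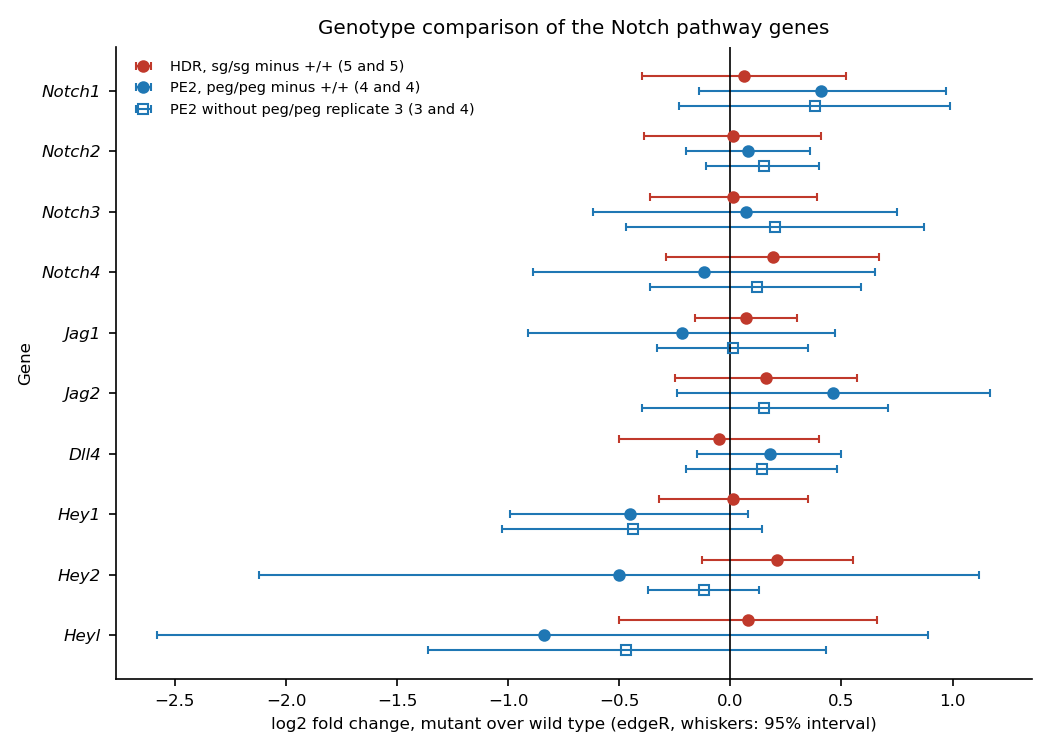
Log2 fold change of each gene, mutant over wild type, on the horizontal axis (edgeR, whiskers give the 95% interval), for HDR (red), PE2 (blue circles) and PE2 without the library labelled peg/peg replicate 3 (open squares). Every interval includes 0, and the intervals of *Hey2* and *Heyl* in PE2 narrow once that library is left out.

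Among the receptors, *Notch2* (chromosome 3, 98013527 to 98150361, GRCm38, plus strand, ENSMUSG00000027878) lies on the same chromosome as *Tspan2*, at a gap of 4.58 Mb. It is a receptor of smooth muscle as well as of many other cells. HDR wild-type libraries 2 to 6 had 417, 335, 401, 283 and 269 CPM of *Notch2*, and sg/sg libraries 2 to 6 had 437, 422, 281, 298 and 277 CPM. PE2 wild-type libraries 1 to 4 had 97.3, 94.8, 122 and 101 CPM, and peg/peg libraries 1 to 4 had 118, 108, 91.5 and 121 CPM. Values of the genotypes were interleaved in both experiments, whereas every HDR library was above every PE2 library. This was not particular to *Notch2*: *Dll4* and *Hey1* separated the other way, with every HDR library below every PE2 library. CPM were scaled within each experiment, and the share of all genes that separate so was not computed. By genotype, the log2 fold change was 0.01 ± 0.18 (SE, edgeR adjusted p = 1) in HDR and 0.08 ± 0.12 (edgeR adjusted p = 0.901) in PE2, and 0.15 ± 0.11 without peg/peg replicate 3.

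*Notch1* (chromosome 2, 26457903 to 26516663, minus strand, ENSMUSG00000026923), the receptor that specifies arterial endothelium, had 103, 108, 78.5, 56.0 and 89.9 CPM in the HDR wild-type and 102, 88.1, 122, 80.9 and 59.3 CPM in the sg/sg libraries. In PE2 it had 62.6, 38.1, 45.5 and 56.1 CPM in wild-type and 66.2, 90.4, 70.3 and 42.3 CPM in peg/peg libraries. Here 3 of 4 peg/peg libraries were above all wild-type libraries and the other lay among them. In PE2 this came to a log2 fold change of 0.41 ± 0.24 (unadjusted p = 0.125, edgeR adjusted p = 0.861), and 0.38 ± 0.26 without peg/peg replicate 3. In HDR it was 0.06 ± 0.21.

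*Notch4* (chromosome 17, 34564268 to 34588503, plus strand, ENSMUSG00000015468), a receptor of endothelium, had 28.8, 29.7, 24.1, 15.4 and 24.7 CPM in the HDR wild-type and 35.5, 27.4, 35.7, 23.8 and 17.5 CPM in the sg/sg libraries. In PE2 it had 40.5, 28.5, 32.0 and 37.7 CPM in wild-type and 33.6, 50.7, 14.1 and 29.1 CPM in peg/peg libraries. The lowest of the PE2 values was in peg/peg replicate 3 and the highest in peg/peg replicate 2. Log2 fold changes were 0.19 ± 0.22 in HDR and -0.12 ± 0.34 in PE2, and 0.12 ± 0.20 without peg/peg replicate 3. *Notch3* (chromosome 17, 32120820 to 32166852, minus strand, ENSMUSG00000038146), the main receptor of vascular smooth muscle, ranged from 72.5 to 124 CPM in HDR wild-type and 68.9 to 109 CPM in sg/sg libraries, and from 48.3 to 106 CPM in PE2 wild-type and 50.1 to 105 CPM in peg/peg libraries. Its log2 fold change was 0.01 ± 0.17 in HDR and 0.07 ± 0.30 in PE2, and 0.20 ± 0.29 in PE2 without peg/peg replicate 3. Antisense or overlapping genes lie over *Notch1*, *Notch3*, *Notch4* and *Dll4*, among others, and the strand setting of the counting is not stated, so reads of such partners may be included.

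Among the ligands, *Jag1* (chromosome 2, 137081456 to 137116644, minus strand, ENSMUSG00000027276) was the steadiest gene of the set in HDR aortae, with a coefficient of variation of 9.68% over the 10 libraries. It had 128, 114, 122, 107 and 96.7 CPM in HDR wild-type and 119, 116, 115, 137 and 109 CPM in sg/sg libraries, a log2 fold change of 0.07 ± 0.11. In PE2 it had 79.5, 67.9, 105 and 83.6 CPM in wild-type and 85.7, 91.3, 33.2 and 79.0 CPM in peg/peg libraries. Peg/peg replicate 3 alone was below the wild-type range. Its log2 fold change was -0.22 ± 0.30 with it and 0.01 ± 0.15 without it.

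*Jag2* (chromosome 12, 112907819 to 112929776, minus strand, ENSMUSG00000002799) was the other Jagged ligand and moved the opposite way in that library. It had 18.2, 11.8, 20.5 and 19.9 CPM in PE2 wild-type and 22.6, 22.6, 37.9 and 13.8 CPM in peg/peg libraries, the highest in replicate 3. The log2 fold change fell from 0.46 ± 0.31 to 0.15 ± 0.24 once that library was left out. In HDR it ranged from 6.66 to 12.9 CPM in wild-type and 8.78 to 12.4 CPM in sg/sg libraries, a log2 fold change of 0.16 ± 0.19.

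*Dll4* (chromosome 2, 119325784 to 119335962, plus strand, ENSMUSG00000027314), the delta ligand of arterial endothelium, had 9.05, 9.31, 8.16, 7.39 and 9.01 CPM in HDR wild-type and 10, 8.35, 10.5, 8.09 and 4.42 CPM in sg/sg libraries. Sg/sg replicate 6 was below every other library. In PE2 it had 14.9, 13.6, 11.9 and 11.4 CPM in wild-type and 16.5, 14.4, 15.3 and 12.1 CPM in peg/peg libraries. Log2 fold changes of *Dll4* were -0.05 ± 0.21 in HDR and 0.18 ± 0.14 in PE2, and 0.14 ± 0.15 in PE2 without peg/peg replicate 3.

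Among the target genes, *Hey1* (chromosome 3, 8663359 to 8667256, minus strand, ENSMUSG00000040289), which also lies on the chromosome of *Tspan2* at a gap of 94.1 Mb, had the smallest p of the set in PE2. It had 7.52, 12.9, 11.4 and 13.5 CPM in PE2 wild-type and 8.51, 10.5, 8.00 and 6.10 CPM in peg/peg libraries. All 4 peg/peg libraries were below 3 of the 4 wild-type libraries, and wild-type replicate 1 was below 3 of them. This gave a log2 fold change of -0.45 ± 0.23 (unadjusted p = 0.0876, edgeR adjusted p = 0.861), and -0.44 ± 0.25 without peg/peg replicate 3. In HDR, *Hey1* ranged from 4.49 to 5.91 CPM in wild-type and from 4.26 to 5.98 CPM in sg/sg libraries, a log2 fold change of 0.01 ± 0.15, and the difference between the edits was -0.49 ± 0.26 (unadjusted p = 0.0755, edgeR adjusted p = 0.97).

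*Hey2* (chromosome 10, 30832359 to 30842801, minus strand, ENSMUSG00000019789), the repressor whose promoter is printed above, had 80.2, 78.4, 115, 69.2 and 58.4 CPM in HDR wild-type and 93.2, 99.3, 94.1, 87.1 and 91.2 CPM in sg/sg libraries. The sg/sg values lay close together, with an SD of 4.44 against 21.3 CPM, and inside the wild-type range. The HDR log2 fold change of *Hey2* was 0.21 ± 0.16 (edgeR adjusted p = 1). In PE2, wild-type libraries had 76.2, 81.4, 97.0 and 74.5 CPM, and peg/peg libraries 77.6, 74.0, 3.73 and 76.8 CPM. The library labelled peg/peg replicate 3 had 20.4-fold less than the mean of the other 3 peg/peg libraries, and those 3 lay within 74.0 to 77.6 CPM. In PE2 its log2 fold change was -0.50 ± 0.71 (edgeR adjusted p = 0.893) with that library and -0.12 ± 0.11 (edgeR adjusted p = 0.989) without it.

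*Heyl* (chromosome 4, 123233556 to 123249875, plus strand, ENSMUSG00000032744), a Notch target of smooth muscle and pericytes, followed the same library. PE2 wild-type libraries had 200, 409, 450 and 359 CPM, and peg/peg libraries 243, 137, 15.6 and 394 CPM. Replicate 3 was again the lowest, 16.5-fold below the mean of the other 3, which themselves differed by more than the wild-type libraries did from each other in relative terms (coefficient of variation 50% against 30.9%). *Heyl* had a log2 fold change of -0.84 ± 0.76 (edgeR adjusted p = 0.862) with it and -0.47 ± 0.39 (edgeR adjusted p = 0.989) without it. HDR wild-type libraries had 175, 133, 143, 124 and 67.1 CPM and sg/sg libraries 199, 168, 98.0, 119 and 95.1 CPM, with a log2 fold change of 0.08 ± 0.26. Relative to the other peg/peg libraries, replicate 3 thus had less *Hey2*, *Heyl*, *Notch4* (2.68-fold), *Jag1* (2.57-fold), *Notch3* (1.6-fold) and *Notch2* (1.26-fold), more *Jag2* (1.92-fold), and *Notch1*, *Dll4* and *Hey1* within 1.07-fold. The part of the unlike tissue markers of that library in these values was not tested.

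**Figure D2:**
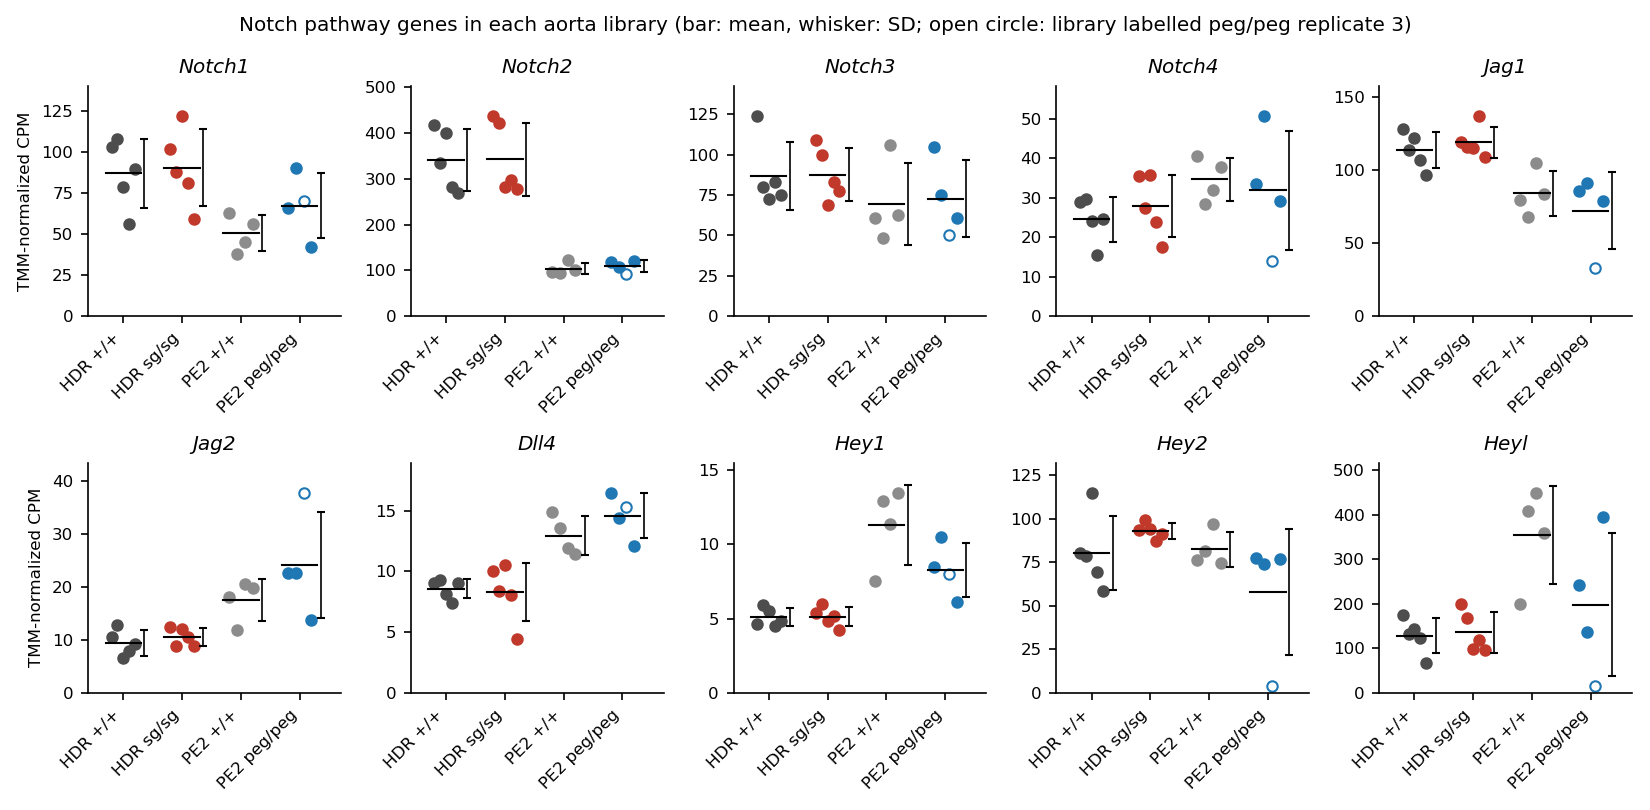
Level of each of the 10 genes in every library, in TMM-normalized CPM on a linear axis from 0, by group (bar, mean; whisker, SD; 5, 5, 4 and 4 libraries). The genotypes overlap in every panel, and the open circle, the library labelled peg/peg replicate 3, is far below the rest for *Hey2* (3.73 CPM) and *Heyl* (15.6 CPM).

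An exact two-sided permutation test of each gene's log2 CPM over libraries gave p from 0.175 to 1 in HDR (smallest p of the design 0.00794) and from 0.143 to 0.857 in PE2 (smallest 0.0286), for 10 genes each and before any adjustment. For *Hey2* in PE2 this call depended on the scaling: on CPM of the library total, all 4 peg/peg libraries were below all 4 wild-type libraries (exact permutation p = 0.0286, before adjustment over the 10 genes), and on TMM CPM they were not (p = 0.229). Without peg/peg replicate 3, *Hey2* still separated on the library total (log2 -0.14, exact permutation p = 0.0571, the smallest of that design), and on TMM CPM the exact permutation p of the 10 genes ran from 0.229 to 0.8. The share of all genes that separate on the library total was not computed, so the separation of *Hey2* on that scale cannot be set against it. Shares of the 4 receptors in their sum per length did not depend on scaling. *Notch2* made up 61.3% of receptor level in HDR wild-type and 60.3% in sg/sg aortae, and 37.2% in each PE2 group. Without replicate 3 it made up 36.4% in peg/peg aortae. Over the 10 shares of each experiment the exact permutation p ran from 0.468 to 0.929 in HDR and from 0.257 to 0.971 in PE2. Without peg/peg replicate 3 it ran from 0.457 to 0.971 in PE2.

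Levels per kilobase of exon gave the order of the genes within a library. In HDR wild-type aortae, *Notch2* was at the top with 31.6 ± 6.21 CPM per kb (SD, n = 5), followed by *Heyl* with 25.1 ± 7.68, *Jag1* with 19.5 ± 2.10 and *Hey2* with 17.5 ± 4.63 CPM per kb. Neighbors among these did not differ beyond their SDs (the mean less its SD against the next mean plus its SD), although *Notch2* was above *Heyl* in 5 of 5 libraries. *Notch3* came next with 10.7 ± 2.58 CPM per kb, not beyond the SDs from *Hey2*, and then *Notch1* with 6.12 ± 1.46 CPM per kb, which differed beyond the SDs from *Notch3* and from the next gene. *Notch4* (3.04 ± 0.706), *Dll4* (2.23 ± 0.206), *Hey1* (1.56 ± 0.186) and *Jag2* (1.35 ± 0.346 CPM per kb) were at the bottom, *Jag2* 23.4-fold below *Notch2*, and of these only *Dll4* differed from its next neighbor beyond the SDs. The sg/sg aortae had the same order of all 10 genes by exon length, with *Jag1* and *Hey2* almost level at 20.5 and 20.2 CPM per kb. The order depended on the length used. With the longest transcript as length, *Hey2* had rank 2 in HDR wild type (31.5 against 32.5 CPM per kb of *Notch2*). In sg/sg aortae it then had rank 1 (36.5 against 32.7 CPM per kb of *Notch2*). Neither pair differed beyond the SDs.

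In PE2 wild-type aortae, *Heyl* led with 69.3 ± 21.4 CPM per kb (SD, n = 4), above *Hey2* in 4 of 4 libraries and beyond both SDs. *Hey2* followed with 17.9 ± 2.24, *Jag1* with 14.4 ± 2.68, *Notch2* with 9.62 ± 1.16 and *Notch3* with 8.58 ± 3.11 CPM per kb. Of these neighbors, *Jag1* and *Notch2* differed beyond the SDs, and the pairs of *Hey2* with *Jag1* and of *Notch2* with *Notch3* did not. *Notch4*, *Notch1*, *Hey1*, *Dll4* and *Jag2* lay between 4.30 and 2.52 CPM per kb, and neighbors among them did not differ beyond their SDs. Without peg/peg replicate 3, peg/peg aortae had the same first 7 genes in the same order, from 50.5 ± 25.3 CPM per kb of *Heyl* (n = 3) downward.

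The wild-type aortae of the experiments were then set side by side in a fit over all 18 libraries, for the levels of the genes in the controls of each edit. *Notch2* was lower in PE2 (8 weeks) than in HDR (12 weeks) wild-type aortae, 3.28-fold (log2 -1.71 ± 0.19 SE, edgeR adjusted p = 8.96e-07), and *Notch1* was lower 1.73-fold (log2 -0.79 ± 0.23, edgeR adjusted p = 0.00804). *Heyl* (2.78-fold), *Hey1* (2.24-fold), *Jag2* (1.87-fold) and *Dll4* (1.51-fold) were higher in PE2, with edgeR adjusted p of 0.0304, 4.07e-05, 0.00512 and 0.0129. *Notch3* (log2 -0.32 ± 0.25), *Notch4* (0.49 ± 0.28), *Jag1* (-0.43 ± 0.21) and *Hey2* (0.04 ± 0.48) did not pass. The 6 calls of 10 stand against 55.7% of all 18094 genes tested. By direction, 4 of the 10 were higher in PE2, against 26.1% of all genes, and 2 were lower, against 29.6%.

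Some of these calls rested on single libraries. Without peg/peg replicate 3, which enters through the shared estimate of spread, *Jag1* was also called (log2 -0.44, edgeR adjusted p = 0.00753), which made 7 of 10, against 59.7% of all genes (28.1% higher and 31.6% lower). *Heyl* missed the threshold without HDR wild-type replicate 3, 5 or 6 (edgeR adjusted p = 0.0503, 0.0523 and 0.0676) and without PE2 wild-type replicate 2, 3 or 4 (0.0641, 0.0894 and 0.0591), with log2 values of 1.25 to 1.48 in all of them. *Dll4* missed it without PE2 wild-type replicate 1 (log2 0.45, edgeR adjusted p = 0.079), and *Notch3* and *Jag1* passed it without PE2 wild-type replicate 3 (log2 -0.69 and -0.65, edgeR adjusted p = 0.0178 and 0.0248). Within the receptor sum, *Notch2* took 57.2% to 68% in HDR and 34.8% to 41.9% in PE2 wild-type libraries, which did not overlap and were not tested. Most shares behaved so. Those of *Notch3* and *Notch4* did not overlap either, nor did those of *Jag1*, *Jag2*, *Dll4*, *Hey2* and *Heyl* within their own families. Only those of *Notch1* and *Hey1* overlapped.

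**Figure D3:**
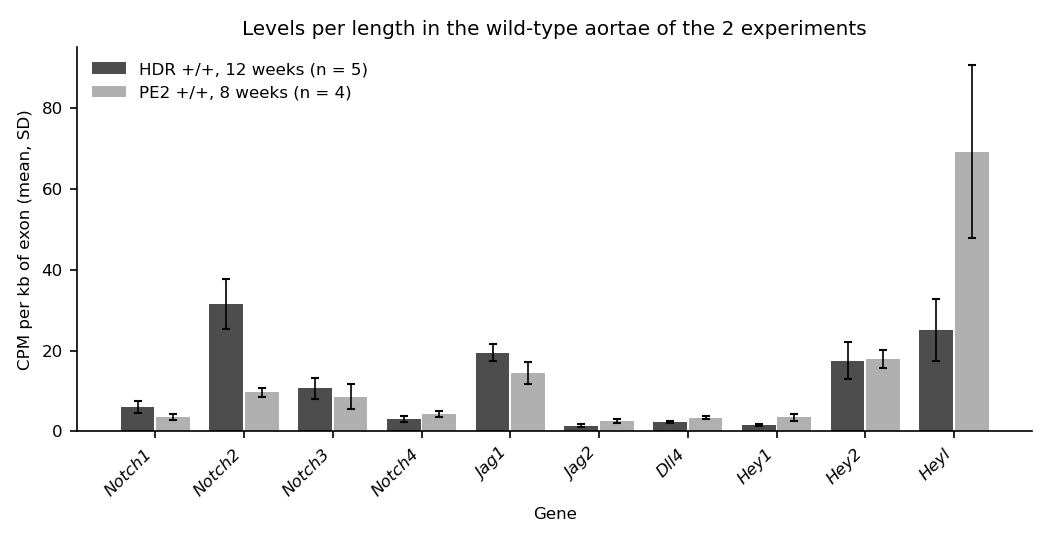
Level of each gene per kilobase of exon (vertical axis, CPM per kb; bars, mean; whiskers, SD) in the wild-type aortae of the HDR experiment (12 weeks, n = 5) and the PE2 experiment (8 weeks, n = 4), scaled within each experiment. *Notch2* leads in HDR at 31.6 and *Heyl* in PE2 at 69.3 CPM per kb.

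Among HDR libraries, *Notch1* and *Notch4* varied with the endothelial markers, and in PE2 *Notch1* did so only once peg/peg replicate 3 was left out. In HDR, *Notch1* and *Notch4* had the same lowest libraries, wild-type replicate 5 and sg/sg replicate 6, in which the sum over 13 endothelial markers was also lowest (1166 and 1231 CPM against 1851 to 2898 CPM). With group means taken out, *Notch1* and *Notch4* correlated with r = 0.98 over the 10 HDR libraries, and *Dll4* with *Notch4* at r = 0.86. In PE2 the same pairs had r = 0.37 and -0.06 over 8 libraries, and 0.95 and 0.24 without peg/peg replicate 3. These points share library preparation and scaling, and the values are a description. Divided by the endothelial sum of the same library, the coefficient of variation over the 10 HDR libraries fell from 23.7% to 10.5% for *Notch1* and from 25.5% to 11.7% for *Notch4*, and for *Dll4* it was 20.1% and 17.7%. That of *Notch2* was 20.3% before and 23.6% after. In the 7 PE2 libraries without peg/peg replicate 3, the same division took *Notch1* from 31.4% to 11.3%, *Notch4* from 21.7% to 10.5% and *Jag2* from 22.9% to 14.8%, while that of *Dll4* rose from 13.8% to 23.9%. Over all 8 PE2 libraries, *Notch4* went from 31.8% to 10.3%, whereas *Notch1* went from 29.3% to 68.6%, *Dll4* from 13.4% to 61.5% and *Jag2* from 37.8% to 107%. The part of the endothelial share in the other values of these genes was not tested.

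**Figure D4:**
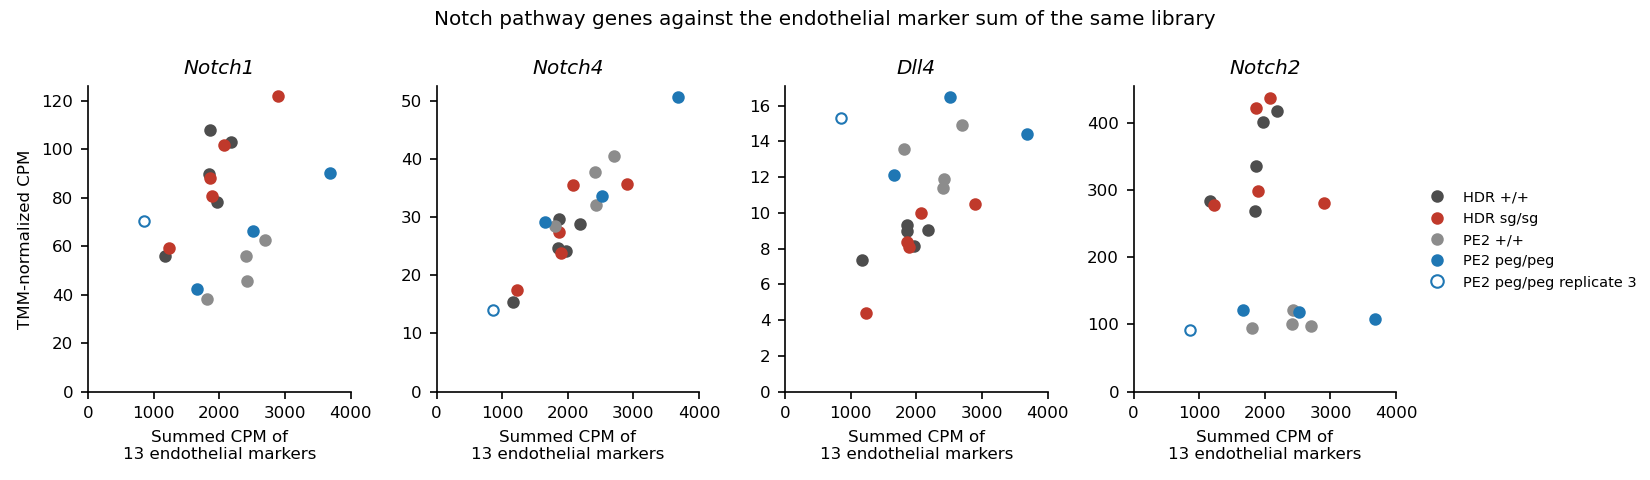
Level of *Notch1*, *Notch4*, *Dll4* and *Notch2* (vertical axes, TMM-normalized CPM) against the summed CPM of 13 endothelial markers in the same library (horizontal axis), 1 point per library. *Notch4* follows the marker sum in both experiments, from 14.1 CPM at a sum of 855 to 50.7 CPM at 3681. *Notch2* and *Dll4* separate by experiment, *Notch2* higher in HDR and *Dll4* higher in PE2.

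Other genes with patterns most like these were read from the smaller of the 2 correlations (10 HDR and 8 PE2 libraries, group means taken out) over 14761 genes. For *Heyl* the first was *Asap2*, with r = 0.96 in HDR and 0.97 in PE2, and 0.87 in PE2 without peg/peg replicate 3. It was followed by *Pdgfrb*, the PDGF receptor of mural cells (0.95, 0.98 and 0.97), and *Smim5* (0.94, 0.99 and 0.94). For *Notch4* the first was *Syt7* (r = 0.98, 0.98 and 0.90), followed by *Arhgef15*, an endothelial exchange factor (0.96, 0.97 and 0.96), and *Atp2a3* (0.96, 0.95 and 0.83). For *Hey2* the first was *Foxc1*, a forkhead factor, with r = 0.95, 0.98 and 0.86. *Tsga10*, the next for *Hey2*, had r = 0.94 and 0.92, but -0.45 without peg/peg replicate 3, so that its PE2 value came from that library. *Pggt1b* came after it, with r = 0.91, 0.93 and 0.79. The PE2 values of the 3 genes most like *Jag1* also fell without that library, from 0.93 to 0.59 (*Hoxc9*), 0.94 to 0.49 (*Prrx1*) and 0.85 to 0.50 (*Gm28119*). Those most like the remaining genes are not listed here.

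Of 46 other genes of the pathway, 41 were tested in HDR and 42 in PE2, and 0 passed the adjusted test in either, by edgeR, DESeq2 or limma-voom, with median log2 fold changes of -0.03 and 0.07. At an unadjusted p under 0.05 there was 1 in HDR (2.44%, against 1.98% of all genes) and there were 3 in PE2 (7.14%, against 4.3%), of which 1, *Maml3*, was left without peg/peg replicate 3 (2.38%, against 4.1%). In HDR this was *Neurl1a*, a ubiquitin ligase of ligand endocytosis, with a log2 fold change of -1.18 ± 0.52. Wild-type replicate 3 had 9.40 CPM of it and the other 9 libraries 0.798 to 2.35 CPM, and without that library the value was -0.32 ± 0.31 (unadjusted p = 0.315). Peg/peg replicate 3 had 60.1 CPM of *Neurl1a* against 1.53 to 3.35 CPM in the other PE2 libraries.

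In PE2 the 3 genes were *Maml3*, a Mastermind coactivator, *Itch*, a ubiquitin ligase that acts on Notch, and *Psen2*, a catalytic subunit of gamma-secretase. *Maml3* stood at 6.34, 5.49, 7.81 and 6.25 CPM in wild-type and at 9.31, 8.78, 15.4 and 9.59 CPM in peg/peg libraries, all of which were above all wild-type libraries, a separation that 2.54% of all genes tested had in PE2 and 5.23% without peg/peg replicate 3. Its log2 fold change was 0.73 ± 0.22 (unadjusted p = 0.00972, edgeR adjusted p = 0.861), and 0.50 ± 0.15 (unadjusted p = 0.0121, edgeR adjusted p = 0.989) without peg/peg replicate 3. *Itch* stood at 61.3 to 66.0 CPM in wild-type and 68.6 to 82.5 CPM in peg/peg libraries, which also did not overlap, with a log2 fold change of 0.23 ± 0.08, and 0.16 ± 0.07 (unadjusted p = 0.0531) without that library. *Psen2* stood at 26.1 to 29.8 against 20.8 to 26.8 CPM, with -0.23 ± 0.10, and -0.18 ± 0.09 (unadjusted p = 0.0877) without it. In HDR, *Maml3* (0.01 ± 0.19), *Itch* (0.11 ± 0.10) and *Psen2* (0.04 ± 0.12) had log2 values nearer to 0. *Hes1*, *Hes5*, *Hes6* and *Hes7*, of the Hes family, gave 2 tested genes in each experiment, *Hes1* and *Hes6*, and 0 at an unadjusted p under 0.05. Not every Hes gene is a Notch target. Between the wild-type groups, 11 of the 42 other pathway genes were higher and 11 lower in PE2 past the adjusted edgeR test, 52.4% of them, against 55.7% of all genes.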

How the data were processed

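The authors trimmed reads with fastp, aligned them with STAR 2.7.0f to GRCm38 (Gencode M22) and counted them with featureCounts (Subread 1.6.4), and deposited raw counts per gene symbol for each experiment. Genotypes came from the labels and column names. HDR columns carry no sex, and 0 columns of per-sample values were left unused. The authors' DESeq2-normalized tables were not used here. The labels and the methods differ on kit and read length.

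From the deposited counts, each experiment was fitted separately with edgeR (4.0.16, under R 4.3.3; filterByExpr, TMM, glmQLFit, glmQLFTest, no covariate, Benjamini-Hochberg adjusted p under 0.05 over 16423 HDR and 16401 PE2 genes). The difference between experiments and that between wild-type groups came from 1 fit with 4 groups over all 18 libraries. Alternatives were DESeq2 1.42.0 (Wald), limma 3.58.1 (voom), DESeq2 size factors in edgeR, other filters, robust dispersions, a replicate block, each library left out, and, chosen after seeing the data, DESeq2 and voom without peg/peg replicate 3. Scripts were tested on simulated data. CPM are TMM-scaled within an experiment. Permutation tests were exact and two-sided on log2(CPM + 0.5). The labels list the libraries as separate samples, and p-values measure the spread between these. No pair of libraries of a group agreed within sampling noise (lowest chi-square per degree of freedom 17.2). Positions and lengths are from Gencode M21 (GRCm38), 1 release before the authors'. The genes, the lists of pathway genes and markers and the tests were chosen with earlier results of these data known. Named genes were the 10 genes, *Tspan2*, pathway genes at an unadjusted p under 0.05, and the 3 genes most like each, of which some are given. The visceral muscle, urothelial and aortic wall genes were added after values were seen. For the replicate block, labels give PE2 libraries a shared number but no shared litter or day.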

Additional observations from a re-analysis of the deposited data

Results flagged for a closer look

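*Hey2* in the library labelled peg/peg replicate 3 stood at 3.73 CPM, far from the other 3 libraries of its group (gap over range 0.951). *Notch3* in HDR wild-type replicate 2 stood at 124 CPM, far from the other 4 (gap over range 0.787). Both ratios were above the 95% critical value of Dixon's test. Of 40 groups of values looked at, 2 were so marked, and chance marks about 1 in 20.

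For *Hey2*, every sg/sg library was above the HDR wild-type mean and every peg/peg library below the PE2 wild-type mean. Neither genotype change was called (log2 0.21 ± 0.16 in HDR, and -0.12 ± 0.11 in PE2 without peg/peg replicate 3). Mutant and wild-type values overlapped on TMM CPM. This gene was picked from 10, and the share of all genes with such a pattern was not computed. The interaction was -0.74 ± 0.68 on the log2 scale (unadjusted p = 0.292, edgeR adjusted p = 1), and -0.33 ± 0.24 (unadjusted p = 0.185) without peg/peg replicate 3, so the test of the difference did not pass.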

How the results depend on the processing

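No setting called any of the 10 genes by genotype: the smallest adjusted p was 0.669 over 17 settings in HDR, 0.533 over 18 in PE2 and 0.571 over 22 for the difference between experiments. Over all genes, HDR had 1 call, and 4 by DESeq2 and 4 with no filter on low counts. PE2 had 1 call, 30 by DESeq2, 0 with the replicate block, 0 to 2 without single libraries, and without peg/peg replicate 3 there were 2 by edgeR, 2 by voom and 99 by DESeq2. The difference between experiments had 0, 13 by DESeq2 and 0 to 4 without single libraries. The replicate block called 0 of the 10 genes, with *Hey2* at -0.88 and *Heyl* at -1.28. Same-numbered PE2 libraries had r of -0.046, -0.184, -0.036 and -0.254, so the numbers were not taken to pair them. In HDR no block was fitted, because the columns name only the genotype and a number from 2 to 6 that is not the number in the labels. Single libraries left out brought some edgeR values under an unadjusted 0.05, with adjusted p of 0.533 or more: *Hey2* in HDR without wild-type replicate 4 (log2 0.38, unadjusted p 0.00668), *Hey1* in PE2 (lowest unadjusted p 0.0172) and in the difference between experiments (0.0147) without PE2 wild-type replicate 1 or peg/peg replicate 2, and *Notch1* and *Jag2* in PE2 without peg/peg replicate 4 (0.0221 and 0.0422). These are the lowest values over many fits of 10 genes. The share of all genes under 0.05 was not computed for those fits, so these values have no share to be set against.

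Directions of uncalled log2 values turned. In HDR, leaving out single libraries gave -0.08 to 0.18 (*Notch1*), -0.09 to 0.09 (*Notch2*), -0.08 to 0.17 (*Notch3*), -0.15 to 0.11 (*Dll4*), -0.05 to 0.08 (*Hey1*) and -0.09 to 0.22 (*Heyl*), and *Notch2* was -0.00 by voom and with no filter. In PE2 it gave -0.17 to 0.34 (*Notch3*), -0.44 to 0.12 (*Notch4*) and -0.36 to 0.01 (*Jag1*). Without peg/peg replicate 3, *Notch4* was 0.13 by DESeq2 and 0.09 by voom, and *Jag1* 0.02 and 0.03. The difference between experiments ran from -0.04 to 0.16 (*Notch2*), -0.21 to 0.33 (*Notch3*) and -0.01 to 0.47 (*Jag2*). Between wild-type groups *Hey2* ran from -0.14 to 0.21 and was -0.06 by DESeq2 and by its size factors, and *Jag1* was called by both (-0.52 and -0.53).

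Mutant minus wild-type shares in percentage points ran in HDR from -1.09 to 1.01 (*Notch1*), -1.92 to 0.78 (*Notch2*), -1.29 to 0.69 (*Notch3*), -0.436 to 1.34 (*Jag1*), -0.0928 to 0.855 (*Jag2*) and -0.693 to 0.0019 (*Hey1*), and in PE2 from -2.4 to 1.92 (*Notch2*), -3.04 to 2.65 (*Notch3*) and -2.15 to 5.2 (*Hey2*). With the longest transcript as length, 6 of 10 genes kept their rank in sg/sg aortae, and *Hey2* took the place of *Notch2* at the top. The causes were not tested. The fewest counts were those of *Hey1* in HDR, 80 to 125 per library.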
